A study of Drosophila melanogaster with 15 samples.

Results

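The metallothionein genes of Drosophila melanogaster, MtnA, MtnB, MtnC, MtnD and MtnE, and MTF-1, the gene for the transcription factor that switches them on, were followed in whole adult females. The 6 genes were taken by their symbols from the deposited abundance table, in which they hold 16 of 34111 transcripts and make up 6 of 17031 genes. TPM, the share of a transcript among all transcripts of a library scaled to a fixed total, were summed over the transcripts of each gene. TPM are scaled for transcript length, so that levels of different genes can be set side by side as far as that scaling holds. The annotated transcripts of the 5 metallothioneins are short, 268 to 700 bases against 2812 to 4020 for MTF-1. How well the scaling serves such short transcripts was not tested.

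RNA was sequenced from whole bodies of mated females about 7 days old, with 5 flies pooled in each of 15 libraries. The w1118 flies, a white-eyed control strain with a working foxo gene, gave 3 libraries from ambient air (normoxia, numbered 2 to 4) and 4 libraries from flies kept for 16 h at 1% oxygen (hypoxia). The foxo mutants, which the study describes as foxo nulls from a stock kept over the TM6B balancer chromosome, gave 4 libraries in each condition. FOXO is a transcription factor of stress and insulin signaling that the study had linked to survival in low oxygen, and the comparisons ask which responses to hypoxia depend on it. The mutant was a single line, and the sources used here do not give whether its genetic background is that of w1118. The foxo transcript was at 18.3 to 39.9 TPM in the w1118 libraries, and no mutant library exceeded 0.257 TPM.

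Metallothioneins are very small proteins, rich in cysteine, that bind copper, zinc and cadmium ions and so keep free metal low in the cell. MTF-1 is a zinc finger protein that enters the nucleus when metals are in excess and binds short metal response elements in the promoters of the metallothionein genes. In flies the family is best known from the gut, where MtnA is the main protection against copper and MtnB against cadmium, and in mammals metallothioneins are also known as genes that respond to hypoxia and oxidants.

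All 5 metallothionein genes lie on chromosome arm 3R (coordinates from the Ensembl annotation of the dm6 assembly). MtnA (FBgn0002868) stands alone at 9783407 to 9784370 on the minus strand. MtnC (FBgn0038790, 20360308 to 20360634, plus strand), MtnB (FBgn0002869, 20503102 to 20503746, minus strand), MtnE (FBgn0262146, 20534021 to 20534704, minus strand) and MtnD (FBgn0053192, 20534962 to 20535301, plus strand) sit within 0.175 Mb of each other. MtnD and MtnE are placed head to head, with their annotated starts 258 bases apart. Each metallothionein transcript in the annotation has 2 exons, and the encoded proteins are 40 (MtnA), 41 (MtnE), 43 (MtnB and MtnC) and 44 (MtnD) residues long. None of the 5 genes overlaps another annotated gene. MTF-1 (FBgn0040305) lies on another chromosome arm, 3L, at 9430312 to 9439490 on the plus strand, with 3 to 6 exons in its transcripts and proteins of 570 to 1006 residues. On the opposite strand it overlaps Bet3 over 1009 bases and CG42526 over 1714 bases, and on its own strand the noncoding asRNA:CR45872 over 467 bases. The library kit marks strand, but whether the counting used it is not given, so reads in these overlaps cannot be told apart. foxo itself is on 3R, 6.272 Mb from MtnC and 4.273 Mb from MtnA. Chromosome 3R differences linked to the mutant allele and the loss of foxo therefore cannot be told apart for the metallothioneins. As the background of the line is not given, MTF-1 on 3L is under the same limit.

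MtnA was by far the most abundant member in every group. Its mean TPM over all libraries ranked 72 among all genes, against 738 for MtnC, 776 for MtnE, 1441 for MtnB, 1820 for MtnD and 6093 for MTF-1. MtnA supplied 80.9 ± 3.82% (SD, n = 3) of the summed TPM of the 5 metallothioneins in w1118 in normoxia and 88.0 ± 2.99% (n = 4) in w1118 hypoxia. In the mutant the share was 81.4 ± 2.09% (n = 4) in normoxia and 92.0 ± 0.917% (n = 4) in hypoxia. Below MtnA the order depended on the group. In w1118 normoxia MtnE came second, then MtnC, then MtnD and MtnB, and only the ranges of the last pair overlapped. In the normoxic mutant MtnC stood above MtnE, again with no overlap. In both hypoxic groups each neighbouring pair among MtnB, MtnC, MtnD and MtnE had overlapping ranges, and MTF-1 had the lowest mean in all 4 groups. Its range lay below those of the 5 metallothioneins except in the hypoxic mutant, where it overlapped that of MtnB (9.47 to 19.7 and 17.8 to 70.5 TPM).

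**Figure D1:**
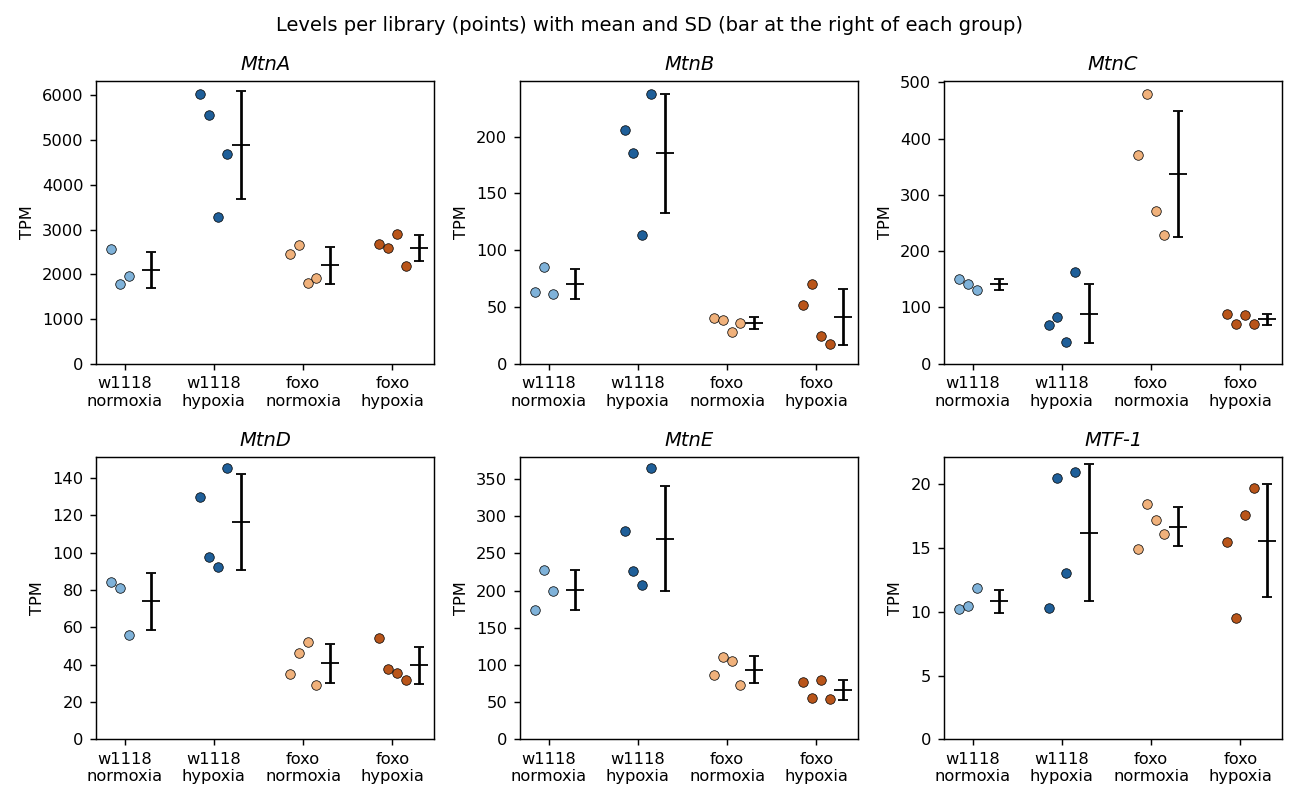
Level of each of the 6 genes in TPM (linear axis, one panel per gene) in every library of w1118 and foxo mutants in normoxia and hypoxia; points are libraries, and the bars beside them give mean and SD of 3 (w1118 normoxia) or 4 libraries. MtnA reaches 3282 to 6027 TPM in w1118 hypoxia and stays between 1777 and 2896 TPM in the other 3 groups, whereas MtnC is highest in the normoxic mutant, at 229 to 480.3 TPM.

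Tests were run with limma on log2(TPM + 1) in 10288 genes that averaged at least 1 TPM in a group, with adjusted p-values by the Benjamini-Hochberg method across all of them. Log2 changes below are on that scale. A gene is called when its adjusted p is under 0.05 and it changed over 1.5-fold. For differences between the genotypes in the hypoxia change, the adjusted p alone decides. All 6 genes passed the filter, and every one did so in each of the 4 groups. The comparisons share libraries with each other, so their values are not independent.

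The first question is what 16 h of hypoxia did in control flies. In w1118, MtnA and MtnB rose more than 2-fold. MtnC had a lower mean after hypoxia, and MtnD, MtnE and MTF-1 had higher ones, but none of these 4 passed the test. The 2 members called higher compare with 12.9% of all genes tested called higher, and the 0 called lower with 8.74% called lower. The median log2 change was 0.57 over the 6 members and 0.22 over all genes.

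MtnA measured 2558, 1777 and 1952 TPM in the 3 libraries of w1118 normoxia. After hypoxia it measured 6027, 5566, 3282 and 4693 TPM. Every hypoxic library was above every normoxic one, as it was for MtnB and MtnD too, against 37.7% of all genes tested whose groups did not overlap. The mean was 2096 ± 409.8 TPM (SD, n = 3) before and 4892 ± 1207 TPM (n = 4) after exposure, a log2 change of 1.20 (SE 0.201, limma adjusted p = 4.24e-04). Libraries of the same number were set side by side as pairs, although the sources used here do not state a pairing. The hypoxia over normoxia ratios were 2.18, 1.85 and 2.40, and hypoxia replicate 1 has no normoxic partner.

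MtnB is expressed at a far lower level than MtnA and is best known for its part in cadmium defence. It measured 63.0, 85.2 and 61.5 TPM in w1118 normoxia. In w1118 hypoxia it measured 205, 185, 113 and 237 TPM. The groups did not overlap, and the lowest hypoxic library was replicate 3, as it was for all 5 metallothioneins. The log2 change was 1.36 (SE 0.372, adjusted p = 0.0146), and the ratios within pairs were 2.94, 1.33 and 3.86. The call for MtnB depended on single normoxic libraries: the adjusted p was 0.058 without w1118 normoxia replicate 2 and 0.0602 without replicate 4. It was also lost under median-of-ratios scaling, which sets the median gene to no change (log2 change 1.12, adjusted p = 0.0933). MtnA kept its call under that scaling (0.96, adjusted p = 0.0285).

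MtnC went the other way. It measured 151, 142 and 131 TPM in w1118 normoxia. In hypoxia 3 libraries were lower, at 69.4, 83.8 and 39.5 TPM, and replicate 4 was higher, at 163 TPM. The ranges therefore overlapped, and the log2 change of −0.84 (SE 0.342) was not called (adjusted p = 0.083). Without w1118 hypoxia replicate 4 it became −1.19 with an adjusted p of 0.00649, and under median-of-ratios scaling −1.08 with an adjusted p of 0.0312. The same library was the highest of its group for MtnB, MtnD, MtnE and MTF-1. For MtnC the ratios within pairs were 0.556, 0.277 and 1.245.

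MtnD and MtnE, the head-to-head pair, showed smaller differences. MtnD measured 84.4, 81.1 and 56.1 TPM in normoxia and 129.7, 97.4, 92.0 and 145 TPM in hypoxia. These ranges did not overlap, and the log2 change was 0.64 (SE 0.239, adjusted p = 0.0601). The call was gained without foxo mutant hypoxia replicate 4 (adjusted p = 0.046) and in a fit of the w1118 libraries alone (adjusted p = 0.0481). All genes called higher went from 1324 to 1637 without that mutant library and to 1425 in the w1118 fit. MtnE measured 174, 227 and 199 TPM in normoxia and 281, 226, 207 and 364 TPM in hypoxia. Its ranges overlapped, and its log2 change was 0.40 (SE 0.210, adjusted p = 0.172). The ratios within pairs were 1.15, 1.14 and 2.60 for MtnD and 1.30, 0.91 and 1.83 for MtnE.

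For the activator MTF-1, the w1118 normoxia libraries measured 10.2, 10.4 and 11.8 TPM. The hypoxia libraries measured 10.3, 20.5, 13.1 and 20.9 TPM. One hypoxic library, replicate 1, lay within the normoxic range and the others lay above it. The log2 change was 0.49 (SE 0.255, adjusted p = 0.169). It was called without w1118 hypoxia replicate 1 (0.67, adjusted p = 0.0473). Leaving out that library also took the number of all genes called higher from 1324 to 2067, so the gain is not particular to MTF-1. Hypoxia exceeded normoxia in the 3 pairs, at ratios of 2.01, 1.25 and 1.77, but these leave out replicate 1, which has no normoxic partner.

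The next question is what the same exposure did in flies without foxo. In the mutant no member was called higher, against 7.06% of all genes tested, and 1 was called lower, against 11.8% of all genes. The single change was a fall of MtnC, from a mean of 338 TPM to a mean of 78.8 TPM. The median log2 change was −0.08 over the 6 members and −0.04 over all genes.

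MtnC measured 370.2, 480.3, 272 and 229 TPM in the normoxic mutant. In the hypoxic mutant it measured 88.0, 70.2, 85.8 and 71.1 TPM. The groups did not overlap, as was so for 26.4% of all genes tested, and the hypoxic libraries lay close together. MtnC fell by 2.04 on the log2 scale (SE 0.317, adjusted p = 2.02e-04), and the call held under each alternative and each library left out.

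MtnA, the member that rose most in TPM in w1118, measured 2453, 2654, 1797 and 1918 TPM in the normoxic mutant. It measured 2674, 2596, 2896 and 2189 TPM in the hypoxic mutant. The ranges overlapped, and the log2 change was 0.24 (SE 0.186, adjusted p = 0.405). MtnB measured 39.9, 38.8, 28.2 and 36.0 TPM in normoxia and 52.1, 70.5, 24.0 and 17.8 TPM in hypoxia. Its hypoxic libraries thus lay on both sides of the normoxic range, with a log2 change of 0.00 (SE 0.344, adjusted p = 0.996).

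MtnD measured 35.2, 46.4, 52.3 and 29.0 TPM in the normoxic mutant and 54.2, 37.5, 35.4 and 31.8 TPM in the hypoxic mutant, with a log2 change of −0.03 (SE 0.222, adjusted p = 0.953). MtnE measured 86.1, 111, 106 and 72.7 TPM in normoxia and 77.3, 55.9, 79.9 and 54.5 TPM in hypoxia. The 2 lowest hypoxic libraries of MtnE were below the normoxic range, and the log2 change was −0.48 (SE 0.195, adjusted p = 0.0883). MTF-1 measured 14.9, 18.4, 17.2 and 16.1 TPM in normoxia and 15.5, 9.47, 17.6 and 19.7 TPM in hypoxia, with 1 library far under the others and a log2 change of −0.13 (SE 0.236, adjusted p = 0.748). Replicate 4 of the hypoxic mutant was the lowest of its group for MtnA, MtnB, MtnD and MtnE.

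Whether hypoxia acted differently in the genotypes was tested as the w1118 change minus the mutant change. The difference was above 0 for all 6 members, with a median of 0.92 against 0.23 over all genes. No member was called by limma (0 of 6). Among all genes tested 1.55% were called with a larger and 1.07% with a smaller log2 change in w1118 (2.61% in either direction). An unadjusted p under 0.05 was met by 4 of the 6 members and by 12.8% of all genes tested. MtnA came nearest, at 0.96 (SE 0.274, unadjusted p = 0.00317, adjusted p = 0.0918). It was called with the replicate number as a block (0.90, adjusted p = 0.0405) and without w1118 hypoxia replicate 3 (1.14, adjusted p = 0.0173), and it was 0.66 under median-of-ratios scaling (adjusted p = 0.532). MtnE differed by 0.88 (SE 0.287, adjusted p = 0.151), MtnB by 1.35 (SE 0.507, adjusted p = 0.229) and MtnC by 1.19 (SE 0.466, adjusted p = 0.258). For MtnD the difference was 0.67 (SE 0.326, adjusted p = 0.415), and for MTF-1 it was 0.62 (SE 0.348, adjusted p = 0.5). A rise called in w1118 and not in the mutant is therefore, for MtnB, not shown to differ between the genotypes, and for MtnA the call depends on the settings above.

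**Figure D2:**
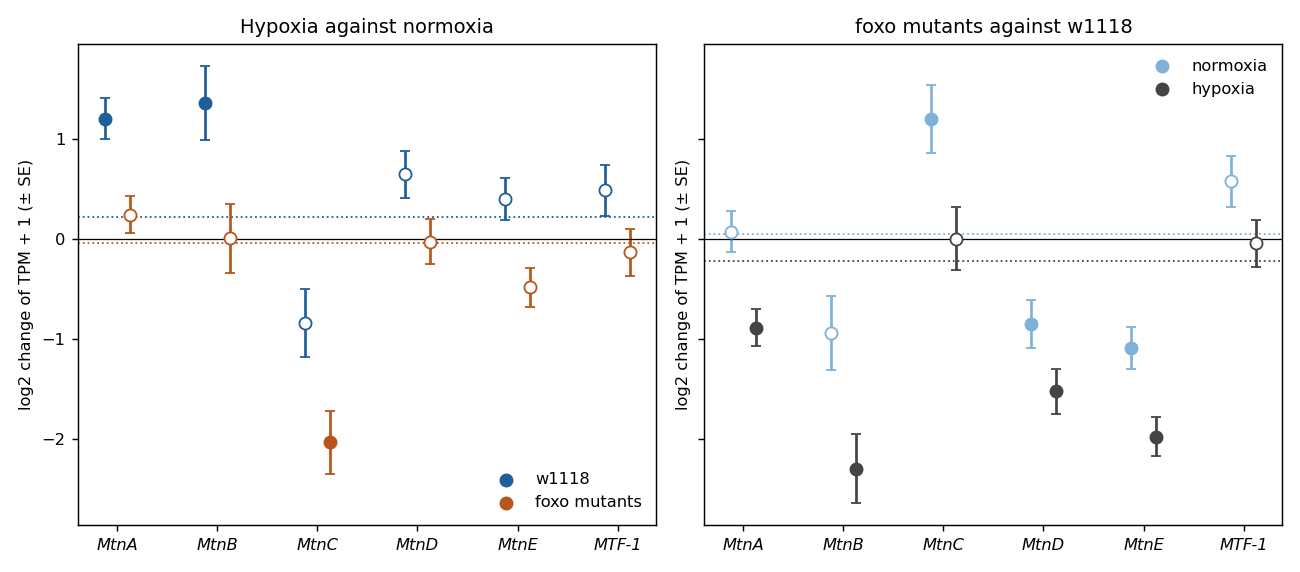
Log2 change of TPM + 1 with its SE for each gene: hypoxia against normoxia in w1118 and in foxo mutants (left), and foxo mutants against w1118 in normoxia and in hypoxia (right). Filled points are called, open points are not, and dotted lines give the median of all genes tested; MtnA and MtnB are called higher in hypoxia in w1118 (1.20 and 1.36), and MtnA, MtnB, MtnD and MtnE are called lower in the mutant in hypoxia (−0.89 to −2.30).

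The genotypes were then compared within each condition. In normoxia the mutant held more MtnC and less MtnD and MtnE than w1118. The 1 member called higher compares with 5.14% of all genes tested called higher, and the 2 called lower with 2.84% called lower. MtnE fell furthest, from 200.3 ± 26.7 TPM (n = 3) in w1118 to 93.9 ± 17.7 TPM (n = 4) in the mutant, a log2 difference of −1.10 (SE 0.210, adjusted p = 0.00323). This call held under each alternative and each library left out. Its neighbour MtnD was 73.8 ± 15.5 TPM in w1118 and 40.7 ± 10.5 TPM in the mutant (−0.86, SE 0.239, adjusted p = 0.0358). MtnC was 141 ± 10.1 and 338 ± 112 TPM (1.20, SE 0.342, adjusted p = 0.0401). The values of the genotypes did not overlap for MtnB, MtnC, MtnD, MtnE or MTF-1, that is for 5 of the 6 members, of which 3 were called. Among all genes tested 35.9% did not overlap between these groups. The values of MtnA overlapped (log2 difference 0.07, adjusted p = 0.898).

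The calls of MtnC and MtnD in normoxia were close to the threshold. MtnC lost its call with the replicate number as a block (1.18, adjusted p = 0.0613) and without any 1 of w1118 normoxia replicates 2, 3 and 4, foxo normoxia replicates 1, 2 and 3, or foxo hypoxia replicates 1 and 3, where its adjusted p ran from 0.0522 to 0.131. MtnD lost it without w1118 normoxia replicates 2 or 3 or foxo normoxia replicates 1 or 4, with adjusted p-values of 0.0993 to 0.155. MtnB differed by −0.94 (SE 0.372, adjusted p = 0.152) and was called in a fit of the normoxic libraries alone (adjusted p = 0.00516). MTF-1 was 10.8 ± 0.891 TPM in w1118 and 16.7 ± 1.52 TPM in the mutant (0.58, SE 0.255, adjusted p = 0.213). Under median-of-ratios scaling its adjusted p was 0.0262, but its log2 difference of 0.54 was under 1.5-fold and so not called.

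In hypoxia the mutant held less of 4 metallothioneins than w1118. The 4 members called lower compare with 7.34% of all genes tested called lower, and the 0 called higher with 6.91% called higher. The median log2 difference was −1.21 over the 6 members and −0.22 over all genes. MtnB stood at 185 ± 52.5 TPM (n = 4) in w1118 and 41.1 ± 24.6 TPM (n = 4) in the mutant, a log2 difference of −2.30 (SE 0.344, adjusted p = 1.87e-04). MtnE stood at 269 ± 70.5 and 66.9 ± 13.6 TPM, a difference of −1.98 (SE 0.195, adjusted p = 2.98e-06). MtnD stood at 116 ± 25.7 and 39.7 ± 9.95 TPM, a difference of −1.53 (SE 0.222, adjusted p = 1.40e-04). In each of these genes all 4 mutant libraries lay below all 4 w1118 libraries, and with MtnA 4 of the 6 members did not overlap, against 16.2% of all genes tested. For these 3 genes the calls held under each alternative and each library left out.

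MtnA stood at 4892 ± 1207 TPM in hypoxic w1118 and 2589 ± 295 TPM in the hypoxic mutant, with no overlap (−0.89, SE 0.186, adjusted p = 0.0032). Under median-of-ratios scaling its difference was −0.64 and no longer called (adjusted p = 0.148). MtnC and MTF-1 did not join the others. MtnC was 88.8 ± 52.5 and 78.8 ± 9.41 TPM (0.00, SE 0.317, adjusted p = 0.999), and MTF-1 was 16.2 ± 5.33 and 15.5 ± 4.41 TPM (−0.04, SE 0.236, adjusted p = 0.905). Summed over the 5 metallothioneins, the levels were 2581 ± 391 TPM in w1118 normoxia, 5552 ± 1294 TPM in w1118 hypoxia, 2714 ± 532 TPM in mutant normoxia and 2815 ± 324 TPM in mutant hypoxia. These sums are mostly MtnA and hide the other members, whose ratios shifted widely. MtnC over MtnB was 2.06 ± 0.364 in w1118 normoxia and 0.456 ± 0.162 in w1118 hypoxia, against 9.41 ± 2.47 and 2.56 ± 1.45 in the mutant. MtnE over MtnD, the ratio of the head-to-head pair, moved less, with means of 1.72 to 2.81 in the 4 groups.

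Without replicate 4 of the hypoxic mutant, the number of all genes called lower in the mutant in hypoxia went from 755 to 2102. The 4 metallothioneins were called lower either way. In the whole body, fewer cells of a type and less RNA per cell cannot be told apart. Marker genes of several tissues had lower medians in the hypoxic groups, and those of photoreceptors had not. The summed TPM of 6 midgut enzyme genes, all present, ranged from 5707 to 8151 in w1118 normoxia and from 1053 to 1645 in w1118 hypoxia, and in the mutant from 9680 to 12810 and from 3087 to 4897. The sum of lab and Vha100-4, markers of the copper cells of the midgut, was 4.28 to 7.86, 1.06 to 2.16, 6.30 to 11.1 and 2.11 to 6.04 TPM in the same groups, with 1 of the 2 markers at a mean of 1 TPM or more. The 6 eggshell genes of follicle cells went from 15388 to 20075 TPM down to 793 to 2376 TPM in w1118, and from 6198 to 14868 TPM down to 796 to 4457 TPM in the mutant. For 5 fat body and yolk genes the ranges were 14801 to 27412 and 2275 to 4813 TPM in w1118, and 18581 to 22571 and 8470 to 11840 TPM in the mutant. Markers of the Malpighian tubule, the fly kidney, were at 69.0 to 110.5, 35.2 to 66.2, 48.0 to 79.2 and 41.5 to 48.4 TPM. The 3 muscle genes were at 237 to 273 and 136 to 216 TPM in w1118, and at 305 to 362 and 179.9 to 267 TPM in the mutant. The 3 photoreceptor genes were at 609 to 670.2 and 655 to 868 TPM in w1118, and at 681 to 852 and 707 to 834 TPM in the mutant. The part of these shifts in the metallothionein results was not tested. Markers of male tissues summed to under 0.39 TPM in every library.

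The nearest tested genes on either side of the metallothioneins, 22 to 95231 bases away, were read for comparison. These 6 genes gave 0 calls between the genotypes in normoxia, where their log2 differences ran from −0.08 to 0.68. Among all genes tested 5.14% were called higher and 2.84% lower there. Between the genotypes in hypoxia the 6 gave 2 higher and 0 lower calls, against 6.91% and 7.34% of all genes tested. Stat92E, the transcription factor of JAK/STAT signaling, lies 22 bases beyond MtnD and differed by −0.46 (adjusted p = 0.319) in hypoxia. The neighbour that moved most was CG12947, 353 bases from MtnA, at 1.17 (adjusted p = 1.72e-04) in the same comparison, a direction opposite to that of MtnA.

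Of the 16 transcripts, 12 averaged at least 1 TPM in a group and were tested among 18362 transcripts. In each metallothionein 1 transcript carried nearly the whole level. For MtnA, NM_079575.2 held 98.1 to 98.5% of the gene on average in the 4 groups, for MtnB NM_079689.3 held 98.0 to 98.4%, and for MtnE NM_001202325.2 held 99.4 to 99.7%. MtnC and MtnD have a single transcript in the table. The minor MtnA transcript NM_001275509.1 followed the major one in w1118, with 33.9 ± 8.23 TPM in normoxia and 90.6 ± 21.9 TPM in hypoxia (log2 change 1.38, SE 0.209, adjusted p = 2.27e-04).

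MTF-1 was split over 7 transcripts, of which 1 was called in hypoxia in w1118. Proportions of transcripts were not tested. In normoxic w1118 flies NM_140054.3 measured 1.36 ± 0.189 TPM (n = 3), and in hypoxic ones 4.96 ± 2.18 TPM (n = 4). It rose by 1.28 on the log2 scale (SE 0.234, adjusted p = 0.00115), and its mean share of MTF-1 went from 12.6% to 30.8%, with ranges of 11.4 to 14.8% and 21.6 to 39.8%. In the mutant it was 2.22 ± 0.261 TPM in normoxia and 2.53 ± 0.501 TPM in hypoxia (0.12, SE 0.217, adjusted p = 0.77). The difference between these changes was 1.16 (SE 0.319, adjusted p = 0.078) and was not called. No member transcript was called for a difference between the genotypes in the hypoxia change, against 2.28% of all transcripts. In hypoxia NM_140054.3 was lower in the mutant (−0.70, adjusted p = 0.04), and NM_168343.2 was higher (0.68, adjusted p = 0.0493). NM_001104092.2 averaged 4.32 and 3.18 TPM in w1118 and 4.56 and 2.29 TPM in the mutant, in normoxia and hypoxia, and was not called. Of the 12 tested member transcripts, 4 were called higher and 0 lower in hypoxia in w1118, both MtnA transcripts among them. Of all transcripts 21.6% were called there in either direction. In the mutant 0 were called higher and 1 lower, against 15.9% in either direction. Between the genotypes 3 were called in either direction in normoxia, against 8.46%, and 8 in hypoxia, against 13%. Shares of transcripts that overlap in sequence are estimates of the quantification, and low transcripts carry the widest errors.

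**Figure D3:**
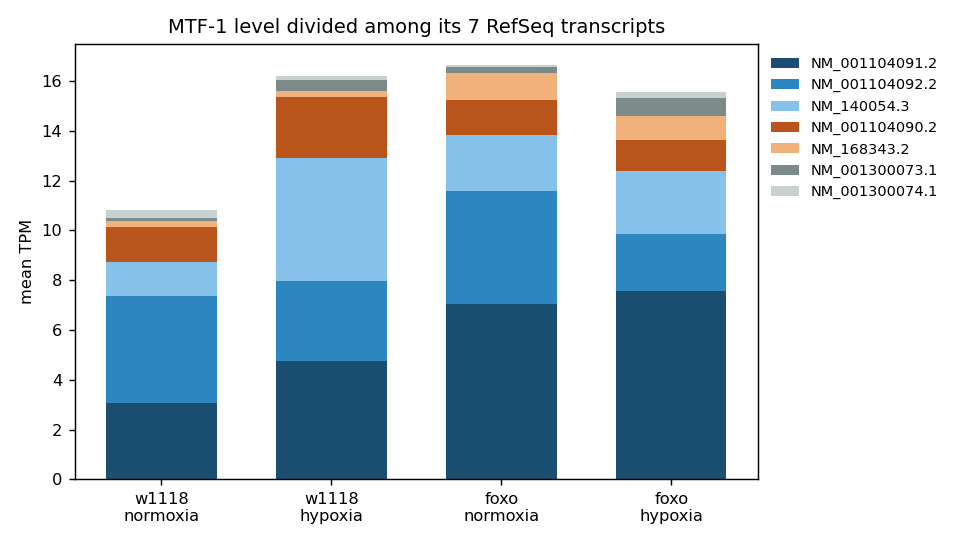
Mean TPM of MTF-1 in each group, stacked by its 7 RefSeq transcripts (bars start at 0, without error bars). The share of NM_140054.3, averaged over libraries, was 12.6% in w1118 normoxia and 30.8% in w1118 hypoxia, and 13.5% and 16.9% in the mutant. These averages differ slightly from its part of the drawn bars, which stack mean TPM.

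The wider copper and zinc system was read from a list of 30 other genes, of which 27 were tested. In w1118, hypoxia raised 4 of them at an adjusted p under 0.05 and lowered 3, against 16.2% of all genes tested higher and 9.84% lower at that threshold. Ccs, the copper chaperone of superoxide dismutase, was 38.2 ± 3.62 TPM in normoxia and 58.6 ± 9.11 TPM in hypoxia (log2 change 0.60, SE 0.134, adjusted p = 0.00414). ATP7, the pump that exports copper, rose from 14.8 ± 2.23 to 27.0 ± 5.79 TPM (0.81, SE 0.222, adjusted p = 0.0146, or 0.0817 without w1118 normoxia replicate 2). Scox, a copper chaperone of cytochrome oxidase, and Sod1, the copper and zinc superoxide dismutase, rose by 0.54 and 0.42. Ctr1B, a copper importer that MTF-1 is known to switch on when copper is scarce, fell from 20.7 ± 7.43 to 5.36 ± 0.428 TPM (−1.72, SE 0.374, adjusted p = 0.00335). The others that fell, the zinc importer gene Zip42C.1 (−0.99) and the ABC transporter gene CG10505 (−0.56), were at mean levels of at most 1.59 TPM in w1118. The median log2 change of the 27 was 0.01, below the 0.22 of all genes. Under median-of-ratios scaling 1 gene, ATP7, was higher (0.58, adjusted p = 0.0014) and 8 were lower. Ccs (0.36, adjusted p = 0.2), Scox (0.29, adjusted p = 0.301) and Sod1 (0.18, adjusted p = 0.636) lost their calls there.

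In the mutant, hypoxia raised 1 gene of the list and lowered 6, against 9.34% and 13.5% of all genes. Ccs was 39.1 ± 1.33 TPM in normoxia and 50.7 ± 1.57 TPM in hypoxia (0.37, SE 0.124, adjusted p = 0.0446). Its adjusted p was above 0.05 in 12 of the 15 fits with 1 library left out (0.0501 to 0.107) and 0.0998 under median-of-ratios scaling. Ctr1B fell there too, from 68.8 ± 30.6 to 19.8 ± 10.3 TPM (−1.77, SE 0.346, adjusted p = 0.00147). Zip71B, a zinc importer, fell from 6.03 ± 1.24 to 1.19 ± 0.184 TPM (−1.67, SE 0.214, adjusted p = 2.97e-05), and Zip42C.1, CG10505, ZnT35C and ZnT41F fell by 0.56 to 1.28. The list gave 1 call for a difference between the genotypes, Zip71B, against 2.61% of all genes. ATP7 did not pass in the mutant (0.49, SE 0.206, adjusted p = 0.104), but had an adjusted p of 0.00128 under median-of-ratios scaling (0.54). Its change was not shown to differ between the genotypes (0.32, SE 0.303, adjusted p = 0.664).

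Between the genotypes, 3 list members were higher and 1 lower in the normoxic mutant (5.52% and 3.14% of all genes), and 1 was higher and 3 lower in the hypoxic mutant (7.65% and 9.42%). Ctr1B was higher in the mutant in both conditions, by 1.63 (SE 0.374, adjusted p = 0.0115) and 1.58 (SE 0.346, adjusted p = 0.00447), whereas MtnD and MtnE were lower in both. In normoxia its adjusted p was 0.0545 without w1118 normoxia replicate 2 and 0.0693 without replicate 3. Zip99C, a transporter known to move iron into the secretory pathway, was lower in both, at 88.7 ± 29.9 against 39.3 ± 2.49 TPM in normoxia (−1.11, adjusted p = 0.00447) and 73.0 ± 11.6 against 32.0 ± 8.44 TPM in hypoxia (−1.18, adjusted p = 6.51e-04). ZnT35C, a zinc transporter of the Malpighian tubule, was lower in the hypoxic mutant by a log2 difference of −0.59 (SE 0.127, adjusted p = 0.00408), or −0.34 under median-of-ratios scaling (adjusted p = 0.0808). Sod3 was lower there too, at 242 ± 28.4 TPM in w1118 and 94.6 ± 44.0 TPM in the mutant (−1.54, SE 0.354, adjusted p = 0.0063). Under that scaling its difference was −1.28 (adjusted p = 0.0223). In normoxia it was −1.13 (adjusted p = 0.0878). MtnF (listed as CG43222), a sixth metallothionein gene, averaged 2.43 to 3.12 TPM in the 4 groups and was called in no comparison.

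**Figure D4:**
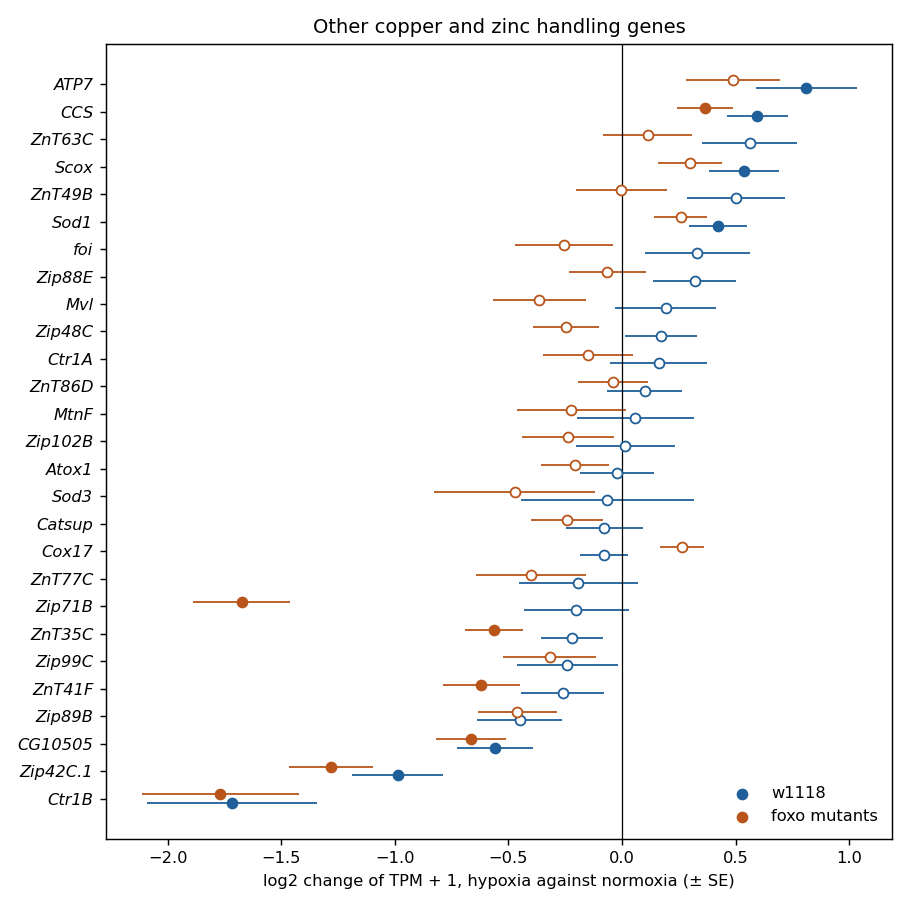
Log2 change of TPM + 1, hypoxia against normoxia, with its SE, for the 27 tested genes of copper and zinc handling in w1118 and in foxo mutants, ordered by the w1118 value. Filled points have an adjusted p under 0.05 across all genes; Ctr1B lies lowest in both genotypes (−1.72 and −1.77), and Zip71B is filled in the mutant only (−1.67, against −0.20 in w1118).

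Genes most like MtnA and MTF-1 were sought among 7010 genes with a mean of at least 10 TPM, by the root mean square difference of their centred log2(TPM + 1) over the 15 libraries. This describes the same libraries that gave the levels above. Nearest to MtnA were the phospholipase gene sPLA2 (0.198), CG42486 (0.222), the cuticle protein gene Cpr67B (0.238), Adgf-D (0.241) and alpha-Est3 (0.254), against a median of 0.586 over all genes ranked. sPLA2 averaged 27.8 TPM in w1118 normoxia, 60.3 TPM in w1118 hypoxia, 25.8 TPM in mutant normoxia and 39.0 TPM in mutant hypoxia. The other members were not among the genes most like MtnA: MtnD ranked 2271, MTF-1 3849, MtnE 5501, MtnB 5759 and MtnC 6597. This measure counts the size of a change as well as its direction, and a gene without any variation would score 0.543 against MtnA. A low rank therefore does not tell a gene with larger changes in the same direction from one that moves otherwise. Nearest to MTF-1 were Gclc (0.0913), the catalytic subunit of the enzyme that starts glutathione synthesis, drpr (0.105), CG32486 (0.106), par-1 (0.119) and Lk6 (0.126), against a median of 0.394. Against MTF-1 a gene without any variation would score 0.359.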

How the data were processed

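Poly-A selected, strand-marking libraries were run on a NextSeq by the authors. Their notes name kallisto (against RefSeq mRNA, dm6) and sleuth (version not given in the sources used here). Deposited by the authors were TPM per transcript for 34111 transcripts in 15 libraries, each totalling 998679.4 to 999016, with 138 transcripts without any value. TPM keep no read number, so depth is unknown and precision is that between replicates, which the study calls independent. The authors' tables of their own comparisons (p-value, q-value, coefficient and fold) were not used.

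TPM were summed per gene. log2(TPM + 1) of 10288 genes averaging at least 1 TPM in some group was fitted with limma 3.58.1 (R 4.3.3), with a variance trend and 1 model of 4 groups. Adjustment over all genes followed Benjamini and Hochberg. The step was tested on simulated data. The members and lists were chosen with earlier results of these data known. Gene positions and structures come from the Ensembl annotation. A gene of the RefSeq table was matched by 99.4% of transcripts.

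Named genes were the 6 members. From the list of copper and zinc genes, those called for a difference between genotypes were added, with up to 2 rising and 2 falling genes of smallest p per other comparison, and the 5 genes most like MtnA and MTF-1. Scox, Sod1, Sod3, CG10505, ZnT41F, MtnF, CG12947 and Stat92E were named after their values were seen.

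Residuals of w1118 libraries with 1 number correlated at 0.142, 0.374 and 0.177 between normoxia and hypoxia. Libraries with different numbers gave −0.284 to 0.161 there. In the mutant, libraries with 1 number gave 0.200, −0.071, 0.139 and 0.331, and those with different numbers −0.569 to 0.395. Between genotypes the values were −0.216 to 0.347 and −0.483 to 0.327. The sources used here do not state that libraries with 1 number belong together. The ratios within w1118 pairs are therefore a description only. Where a block on the number changes a call of a member, its value is given.

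Alternatives were no filter, a filter at 5 TPM, a pseudocount of 0.1 or of 5, median-of-ratios scaling, the block, no variance trend, an adjusted p of 0.01, the compared libraries alone and each library left out. Promoter and protein sequences were not analysed here.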

Additional observations from a re-analysis of the deposited data

Results flagged for a closer look

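ZnT35C, a zinc transporter gene, had 1 mutant hypoxia library far from the others of its group. Replicate 2 measured 28.9 TPM, and the other 3 measured 35.7 to 36.7 TPM. Such a gap is met by chance in about 1 of 20 groups, and 42 groups of values were searched. Replicate 2 was also the lowest of its group for MtnC, MTF-1 and several other list genes. Among these were Mvl (20.1 against 32.4 to 47.7 TPM) and foi (21.4 against 32.5 to 49.6 TPM), but not Ctr1B or Sod1. Whether the gap is particular to ZnT35C was not tested.

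Zip71B, a zinc importer gene, changed differently with hypoxia in the genotypes. The w1118 change minus the mutant change was 1.47 on the log2 scale (SE 0.314, limma adjusted p = 0.0186). The level went from 2.96 ± 1.09 to 2.46 ± 0.947 TPM in w1118 (n = 3 and 4) and from 6.03 ± 1.24 to 1.19 ± 0.184 TPM in the mutant (n = 4 and 4). The call was lost without w1118 normoxia replicate 2 (1.43, adjusted p = 0.0536) or replicate 3 (1.30, adjusted p = 0.0638).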

How the results depend on the processing

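Of 714 values of the 6 members under the alternatives, 662 kept their direction and their side of the threshold, 23 lost a call, 8 gained one and 21 changed sign. For the named copper and zinc genes the numbers were 827, 750, 41, 13 and 23. The cause was not tested. Median-of-ratios scaling moved the median change of all genes in w1118 from 0.22 to 0.00, and the share of higher calls there from 59.6% (1324 higher, 899 lower) to 36.6% (734 and 1269). With an unknown depth, small differences of low genes cannot be bounded.

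Members called in hypoxia in w1118 were 2 higher and 0 lower, 1 and 1 under median-of-ratios scaling, and 1 higher at an adjusted p under 0.01. The block on the replicate number gave 1 genotype difference (MtnA) in place of 0, and in normoxia 0 in place of 1 member higher in the mutant, as did no filter and the stricter p. Members lower in the normoxic mutant went from 2 to 1 without filter, under median-of-ratios scaling and at the stricter p. With each library left out, members called ran from 1 to 3 higher and 0 to 1 lower in hypoxic w1118, from 0 to 1 for the genotype difference, and from 0 to 1 higher and 1 to 2 lower in the normoxic mutant.

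Copper and zinc genes in w1118 hypoxia were 3 lower, 1 at a mean of 5 TPM and 8 under median-of-ratios scaling, and 4 higher, 1 under that scaling and at the stricter p. In mutant hypoxia the 1 higher became 2 without filter and 0 at 5 TPM, under the block, without variance trend, at the stricter p and with the compared libraries alone. The 1 genotype difference became 0 at the stricter p. In the normoxic mutant the 3 higher became 1 at 5 TPM and at a pseudocount of 0.1, 6 under median-of-ratios scaling and with the compared libraries alone, and 0 at the stricter p, and the 1 lower became 2 with the compared libraries alone. In the hypoxic mutant the 1 higher became 2 at a pseudocount of 0.1 and 4 under median-of-ratios scaling, and the 3 lower became 5 under the block. With each library left out, these ran from 1 to 6 higher and 2 to 4 lower in w1118 hypoxia, 0 to 2 higher and 5 to 9 lower in mutant hypoxia, 0 to 1 for the genotype difference, 0 to 4 higher and 1 to 2 lower in the normoxic mutant, and 1 to 2 higher and 3 to 10 lower in the hypoxic mutant. Member transcripts called without filter went from 3 to 1 in normoxia and from 8 to 5 in hypoxia between the genotypes. The block changed no call of the members other than those of MtnA and MtnC given above.

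Signs changed only for differences that were not called. In mutant hypoxia MtnB became −0.0008 at a pseudocount of 0.1 and ran from −0.32 to 0.32 with libraries left out, MtnD became 0.0254 under median-of-ratios scaling and ran from −0.18 to 0.10, and MTF-1 ran from −0.26 to 0.0712. Between genotypes in hypoxia MtnC became −0.0066 at a pseudocount of 5 and ran from −0.32 to 0.35, MTF-1 became 0.19 under median-of-ratios scaling and ran from −0.23 to 0.16, Ccs became 0.055 and ATP7 0.21 under that scaling, and ATP7 ran from −0.20 to 0.13. In normoxia MtnA ran from −0.0381 to 0.22, and Ccs became −0.0065 under that scaling and ran from −0.0027 to 0.11. For the genotype difference Zip42C.1 became −0.84 and Ctr1B −0.0487 at a pseudocount of 0.1, Ctr1B −0.21, Ccs −0.0616 and Zip99C −0.21 under median-of-ratios scaling, and Ctr1B −0.12 under the block, while Ctr1B ran from −0.22 to 0.34 and Zip99C from −0.12 to 0.33. In w1118 hypoxia Zip71B ran from −0.37 to 0.0097 and Zip99C from −0.44 to 0.0139.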
